A study of Homo sapiens with 12 samples.

Results

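The genes examined here are 9 neighbours of RNF26 in the 11q23 stretch of chromosome 11, namely H2AX, HINFP, DPAGT1, C2CD2L, VPS11, NLRX1, CBL, MCAM and USP2. They were chosen by name and position, as the rows of the deposited table whose Ensembl identifier maps to one of these symbols, and make up 9 of 63036 identifiers. Messenger RNA was profiled in HCT116 and HCT15, established human colorectal carcinoma lines, in 4 groups of 3 libraries. The groups were HCT116_ov_RNF26, HCT116 cells overexpressing RNF26, with HCT116_con as their controls, and HCT15_ov_RNF26 with HCT15_con as theirs. The labels name no other allele or agent, and the sources used here give neither the vector, nor the construct in the controls, nor the number of clones. Nothing says that the replicates came from separate cultures, so a p-value here measures the spread between libraries, which may be technical. The comparisons ask whether the mRNA of genes lying beside RNF26 differed in cells in which RNF26 was raised.

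RNF26 is a ubiquitin ligase of the endoplasmic reticulum membrane that holds vesicles of the endosomal system near the nucleus. Genes that lie side by side can share chromatin, but the neighbours of RNF26 are mostly widely expressed genes of unrelated function. H2AX is a histone variant that is phosphorylated around DNA breaks, and HINFP is a zinc finger factor that activates histone H4 genes at the start of S phase. DPAGT1 is the enzyme that starts the dolichol-linked glycan for N-glycosylation. C2CD2L carries phosphatidylinositol at contacts between the endoplasmic reticulum and the plasma membrane, and VPS11 is a core subunit of HOPS and CORVET, the tethering complexes of lysosomes and endosomes. NLRX1 is a mitochondrial protein of the NOD-like receptor family known for restraining antiviral signalling. CBL is a ubiquitin ligase that sends activated receptor tyrosine kinases to degradation, MCAM (CD146) is an adhesion molecule of the immunoglobulin family, and USP2 is a deubiquitinase.

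In the GENCODE release 29 annotation of GRCh38, RNF26 lies on the plus strand at chr11:119334527-119337313, and of the 9 neighbours USP2 alone lies downstream of it. MCAM (chr11:119308529-119321521, minus strand) is 13.0 kb from RNF26, USP2 (chr11:119355215-119381726, minus strand) 17.9 kb, and CBL (chr11:119206276-119313926, plus strand) 20.6 kb. On the plus strand further upstream lie NLRX1 (chr11:119166568-119184016), HINFP (chr11:119121587-119136044), C2CD2L (chr11:119102198-119118544) and VPS11 (chr11:119067692-119081978), with gaps of 151, 198, 216 and 253 kb. DPAGT1 (chr11:119096503-119108331) and H2AX (chr11:119093854-119095467) lie on the minus strand, 226 and 239 kb from RNF26. The annotated spans of DPAGT1 and C2CD2L overlap on opposite strands by 6134 bases, and those of CBL and MCAM by 5398 bases. The sources used here do not say whether reads were assigned by strand, so the values of these 4 genes carry that uncertainty.

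**Figure D1:**
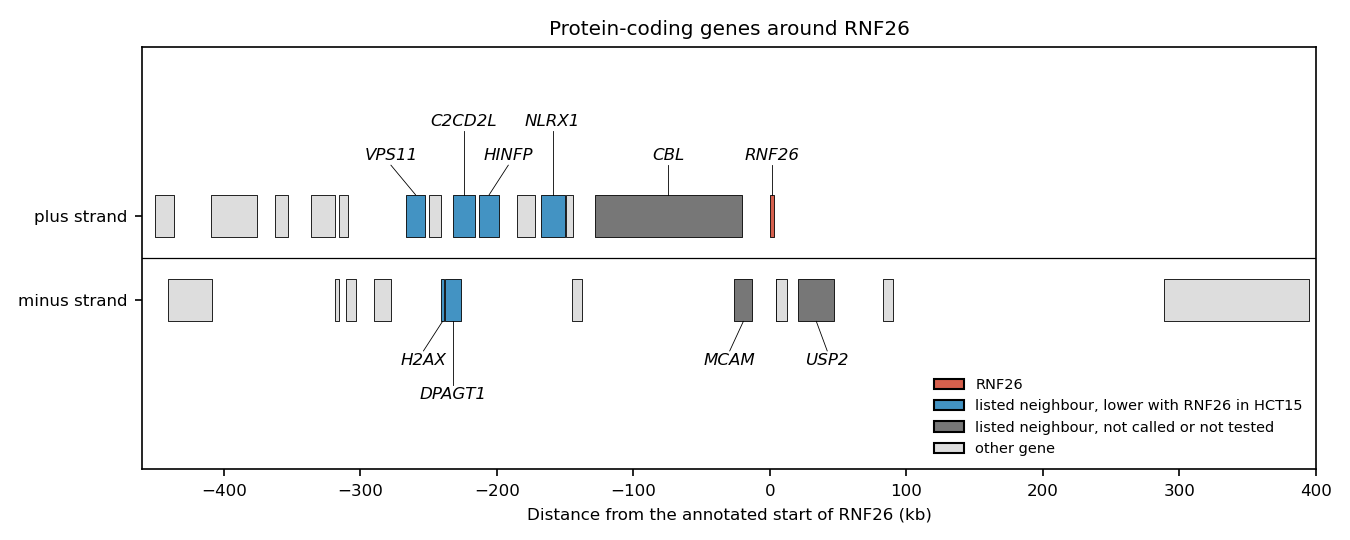
Protein-coding genes within 500 kb of RNF26, drawn to scale by strand, with the distance from the annotated start of RNF26 in kb on the x axis. The 6 listed neighbours that were lower with RNF26 in HCT15 (blue) lie 151 to 253 kb upstream, and the nearer CBL, MCAM and USP2 (dark grey) were not called or not tested.

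RefSeq promoter windows (GRCh38.p14, 250 bases before to 50 after a gene's start) were found for 8 of the 9 neighbours and for RNF26, and CBL had no entry. The windows were searched on both strands for 4 words, none of which contains another. Of the 34796 promoter windows of the table, 34.6% held the CCAAT box, spelled CCAAT. The TATA box, spelled TATAAA, was in 11.6% of windows, the E-box, spelled CACGTG, in 7.21%, and the GC box, spelled GGGCGG, in 44.9%. The windows of H2AX, HINFP and VPS11, which were all lower with RNF26 in HCT15, are printed beside that of RNF26, which was raised. Those of DPAGT1, C2CD2L and NLRX1, also lower in HCT15, are described below by their words only. Capitals mark the CCAAT box, the TATA box and the E-box or their reverse complements, and each window is read 5′ to 3′ on the strand of its gene.
H2AX (chr11:119095416-119095715, minus strand): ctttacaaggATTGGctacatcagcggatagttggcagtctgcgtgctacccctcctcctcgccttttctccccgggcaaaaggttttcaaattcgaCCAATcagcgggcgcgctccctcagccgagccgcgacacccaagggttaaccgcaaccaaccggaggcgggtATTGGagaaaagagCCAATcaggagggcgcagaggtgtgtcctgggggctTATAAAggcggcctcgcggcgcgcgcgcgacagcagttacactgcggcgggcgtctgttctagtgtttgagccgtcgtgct
HINFP (chr11:119121330-119121629, plus strand): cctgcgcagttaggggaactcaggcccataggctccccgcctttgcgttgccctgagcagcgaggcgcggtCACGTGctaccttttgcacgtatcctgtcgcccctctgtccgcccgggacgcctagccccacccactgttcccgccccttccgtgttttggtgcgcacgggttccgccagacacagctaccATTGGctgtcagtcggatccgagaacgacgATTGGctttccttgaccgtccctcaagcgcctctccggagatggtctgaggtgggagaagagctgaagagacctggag
VPS11 (chr11:119067568-119067867, plus strand): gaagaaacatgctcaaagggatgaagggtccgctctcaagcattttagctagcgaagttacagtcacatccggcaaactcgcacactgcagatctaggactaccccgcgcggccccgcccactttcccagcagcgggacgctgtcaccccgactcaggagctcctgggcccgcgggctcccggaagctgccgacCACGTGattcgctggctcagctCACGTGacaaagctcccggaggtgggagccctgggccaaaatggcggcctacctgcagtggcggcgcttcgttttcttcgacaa
RNF26 (chr11:119334277-119334576, plus strand): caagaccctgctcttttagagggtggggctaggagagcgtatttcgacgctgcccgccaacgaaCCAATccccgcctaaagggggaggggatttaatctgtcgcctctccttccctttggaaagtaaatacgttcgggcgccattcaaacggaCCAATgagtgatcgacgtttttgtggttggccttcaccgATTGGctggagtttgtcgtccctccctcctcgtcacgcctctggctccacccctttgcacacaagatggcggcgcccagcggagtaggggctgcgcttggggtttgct
The H2AX window held 4 CCAAT boxes and 1 TATA box, and that of RNF26 held 3 CCAAT boxes. HINFP held 2 CCAAT boxes, 2 GC boxes and 1 E-box, and the VPS11 window shown, the first of 2, held 2 E-boxes, 1 GC box and no CCAAT box. The second VPS11 window, which overlaps the first, held 1 of the same E-boxes and none of the other words. Of the 2 windows of C2CD2L, 1 held an E-box and the other held 4 GC boxes. The NLRX1 window held none of the 4 words, and that of DPAGT1 held 1 GC box. MCAM, not called in either line, and USP2, not tested, held 5 and 3 GC boxes and none of the other words, and 2 of those of MCAM overlap by 1 base. The 6 neighbours that were lower in HCT15 therefore shared no single word of the 4. A match describes the letters of a window and is not a site.

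RNF26 mRNA was measured in TPM, transcripts per 1000000, which scales each gene's reads by its length and sets every library to the same total. It stood at 299, 334 and 255 TPM in HCT116 RNF26 libraries, against 15.6, 18.4 and 16.5 TPM in HCT116 controls. In HCT15 it stood at 53.5, 54.6 and 54.4 TPM in RNF26 libraries, against 26.7, 27.8 and 26.4 TPM in controls. The labels and the targeted gene thus matched in all 12 libraries, with RNF26 groups wholly above their controls. The ratio of means was 17.6 in HCT116 and 2.01 in HCT15, so the lines differed in how far RNF26 was raised. TPM cannot tell transcripts of the 11q23 gene from those of an introduced copy.

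Across the series, 13582 to 14135 identifiers per library had at least 1 TPM, and sequencing depth is unknown because TPM does not keep it. Markers of colon epithelium summed to 2726 to 5599 TPM per library, with KRT8 and KRT18 leading and CDX1 at or near 0. VIL1 averaged 0.41 and 0.46 TPM in HCT116 RNF26 and control libraries. In HCT15 RNF26 and control libraries KRT20 averaged 0 and 0.02 TPM. Markers of leukocytes summed to at most 14.6 TPM, nearly all of it CD68, with CD3E at 0 in every library. Markers of fibroblasts and endothelium summed to at most 2.94 and 0.32 TPM, with DCN and LUM at 0 in every library.

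In HCT116, none of the neighbours passed the test between RNF26 and control libraries, although RNF26 itself was raised 17.6-fold. Log2 fold changes of TPM + 1 were tested with limma over the 15584 genes that had at least 1 TPM in at least 3 libraries, and a gene was called at an adjusted p (Benjamini-Hochberg) under 0.05. Of the 9 neighbours 8 passed this filter on low values and USP2 did not. Of the 8 tested neighbours limma called 0, where it called 0.00642% of all genes, and 1 had an unadjusted p under 0.05, where 4.22% of all genes did. Their log2 fold changes ran from -0.51 for MCAM to 0.11 for CBL, with a median of -0.06, against 0.007 for all genes.

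H2AX, the most abundant of the 9 in HCT116, averaged 105 ± 15.3 TPM in RNF26 libraries and 108 ± 6.95 TPM in controls (SD, n = 3 each). DPAGT1 averaged 22.3 ± 1.47 TPM in RNF26 libraries and 21.9 ± 0.591 TPM in controls. VPS11 averaged 14.4 ± 0.946 TPM in RNF26 libraries and 15.7 ± 1.16 TPM in controls. For these 3 genes the groups overlapped, and the difference of means was about the size of the spread or below it. HINFP averaged 15.7 ± 0.901 TPM in RNF26 libraries and 16.8 ± 1.73 TPM in controls. C2CD2L and NLRX1 were low, at 2.90 ± 0.343 and 2.75 ± 0.416 TPM in RNF26 libraries, against 3.11 ± 0.491 and 2.77 ± 0.158 TPM in controls. Their groups overlapped too. CBL averaged 4.45 ± 0.320 TPM in RNF26 libraries and 4.06 ± 0.255 TPM in controls, also with overlap.

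MCAM, the nearest listed neighbour on the upstream side, was the 1 gene of the 8 whose HCT116 groups did not overlap, which held for 12.8% of all genes. It stood at 9.95, 9.71 and 8.28 TPM in RNF26 libraries, against 10.8, 19.9 and 11.9 TPM in controls. Control replicate 2 stood well above the other 2 controls. The log2 fold change was -0.51 (SE 0.220, unadjusted p = 0.0398, limma adjusted p = 1), and -0.26 without control replicate 2. MCAM is thus not called in HCT116.

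**Figure D2:**
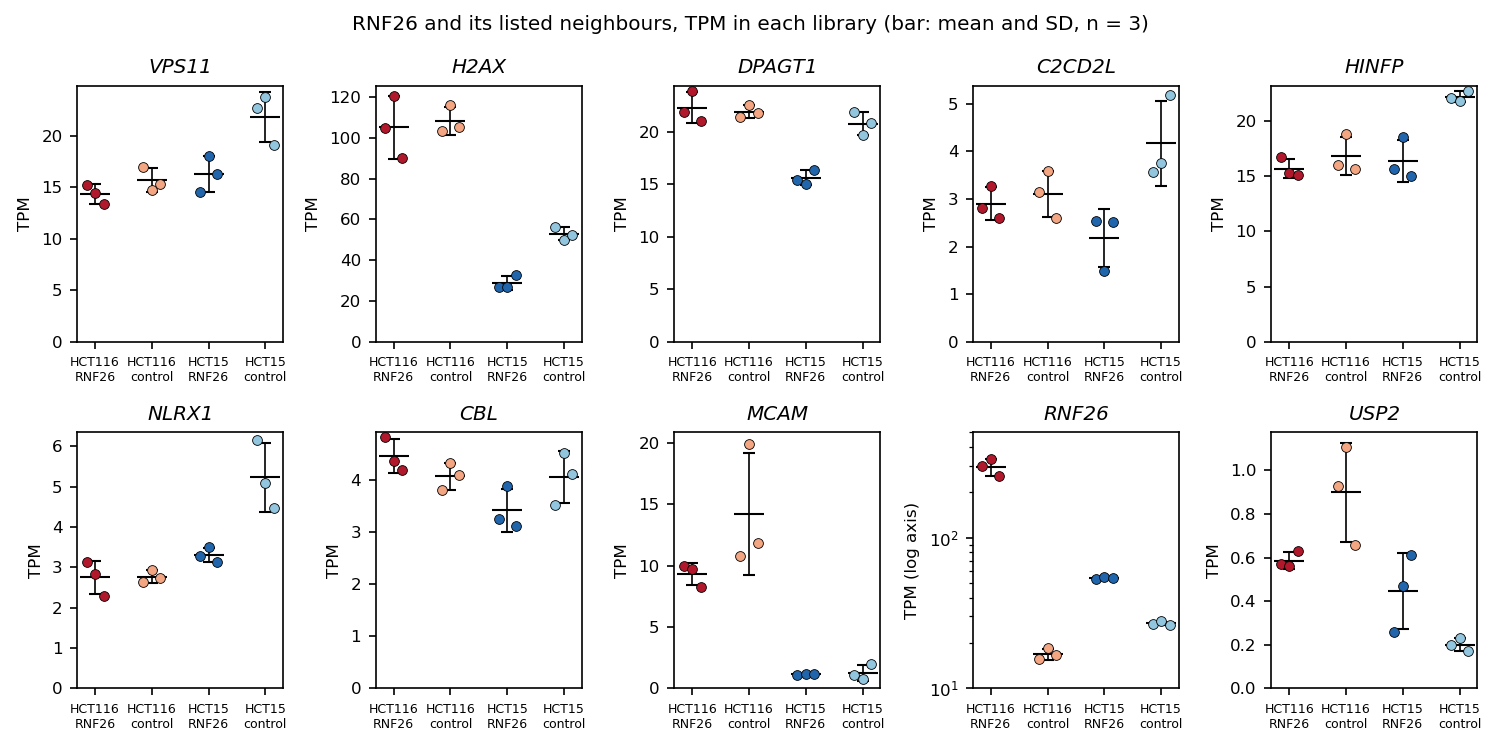
TPM of RNF26 and its 9 listed neighbours in each library (points), with the mean and SD of each group of 3; the RNF26 axis is logarithmic and the others start at 0. In HCT15, RNF26 libraries (dark blue) lie wholly below controls (light blue) for VPS11, H2AX, DPAGT1, C2CD2L, HINFP and NLRX1, while the HCT116 groups (red and orange) overlap for every tested neighbour but MCAM.

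In HCT15, 6 of the 8 tested neighbours fell with RNF26, where limma called 31.2% of all genes lower and 36.6% in either direction. They were H2AX, HINFP, DPAGT1, C2CD2L, VPS11 and NLRX1, and their means were 0.523 to 0.751 of the control means. CBL and MCAM were not called, USP2 was not tested, and 0 were higher, against 5.39% of all genes. The 6 genes were also those whose groups did not overlap, which held for 43.1% of all genes. The 8 log2 fold changes all lay below 0, with a median of -0.41, against -0.17 for all tested genes. Since the whole table was centred below 0 in HCT15, each change is given below also relative to that median.

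The histone variant gene H2AX had the change farthest from 0 on the log2(TPM + 1) scale, while by the ratio of mean TPM C2CD2L (0.523) lay below H2AX (0.545). H2AX stood at 26.7, 27.0 and 32.7 TPM in HCT15 RNF26 libraries, against 56.3, 50.03 and 52.4 TPM in HCT15 controls. Every RNF26 library lay below every control by a gap wider than the spread of either group. Its log2 fold change was -0.86 (SE 0.110, limma adjusted p = 0.000213), or -0.69 relative to the median of all genes. HINFP, the activator of histone H4 genes, stood at 15.7, 18.6 and 15.0 TPM in RNF26 libraries, against 22.1, 21.8 and 22.8 TPM in controls. The controls were close together, and RNF26 replicate 2 was the nearest to them. The log2 fold change was -0.42 (SE 0.0929, limma adjusted p = 0.0048), or -0.26 relative to the median.

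Among genes of membranes and vesicles, DPAGT1, the first enzyme of the dolichol-linked glycan, stood at 15.5, 15.0 and 16.4 TPM in RNF26 libraries, against 21.9, 19.7 and 20.8 TPM in controls. Both groups were tight and apart. Its log2 fold change was -0.39 (SE 0.0696, limma adjusted p = 0.00142), or -0.22 relative to the median. C2CD2L, the lipid carrier, stood at 2.54, 1.48 and 2.52 TPM in RNF26 libraries, against 3.56, 3.76 and 5.19 TPM in controls. RNF26 replicate 2 was the lowest and control replicate 3 the highest, and the groups did not overlap. Its log2 fold change was -0.71 (SE 0.169, limma adjusted p = 0.00739), or -0.54 relative to the median. VPS11, the HOPS and CORVET subunit, stood at 14.6, 18.1 and 16.3 TPM in RNF26 libraries, against 22.7, 23.8 and 19.1 TPM in controls. The gap between the highest RNF26 library and the lowest control was small beside the spread within the groups. Its log2 fold change was -0.40 (SE 0.103, limma adjusted p = 0.0107), or -0.23 relative to the median.

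NLRX1, the mitochondrial receptor-family protein, stood at 3.28, 3.50 and 3.14 TPM in RNF26 libraries, against 6.15, 5.10 and 4.46 TPM in controls. The RNF26 libraries were close together and the controls spread widely above them. Its log2 fold change was -0.53 (SE 0.119, limma adjusted p = 0.00549), or -0.36 relative to the median.

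The 3 neighbours nearest to RNF26 were not called in HCT15. CBL, the ligase of receptor tyrosine kinases, stood at 3.24, 3.87 and 3.11 TPM in RNF26 libraries, against 3.52, 4.51 and 4.11 TPM in controls, and the groups overlapped (log2 fold change -0.19, SE 0.106, limma adjusted p = 0.178). MCAM stood at 1.12, 1.18 and 1.16 TPM in RNF26 libraries, against 1.07, 0.75 and 1.95 TPM in controls. RNF26 libraries lay within the range of the controls (log2 fold change -0.03, limma adjusted p = 0.943). MCAM was near the filter on low values in HCT15 and well above it in HCT116. USP2, the deubiquitinase, was the lowest of the 9, at 0.26, 0.47 and 0.61 TPM in HCT15 RNF26 libraries, against 0.20, 0.23 and 0.17 TPM in HCT15 controls. In HCT116 it stood at 0.57, 0.56 and 0.63 TPM in RNF26 libraries, against 0.93, 1.11 and 0.66 TPM in controls. These groups did not overlap in either line, which held for 43.1% of tested genes in HCT15 and 12.8% in HCT116. The order was opposite in the lines, at levels near 0. The nearest RNF26 and control libraries stood at 0.26 and 0.23 TPM in HCT15, and at 0.63 and 0.66 TPM in HCT116. When all 35454 genes were tested with no filter, USP2 was not called in HCT15 (log2 fold change 0.26, limma adjusted p = 0.203) or HCT116 (-0.25, adjusted p = 0.979).

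**Figure D3:**
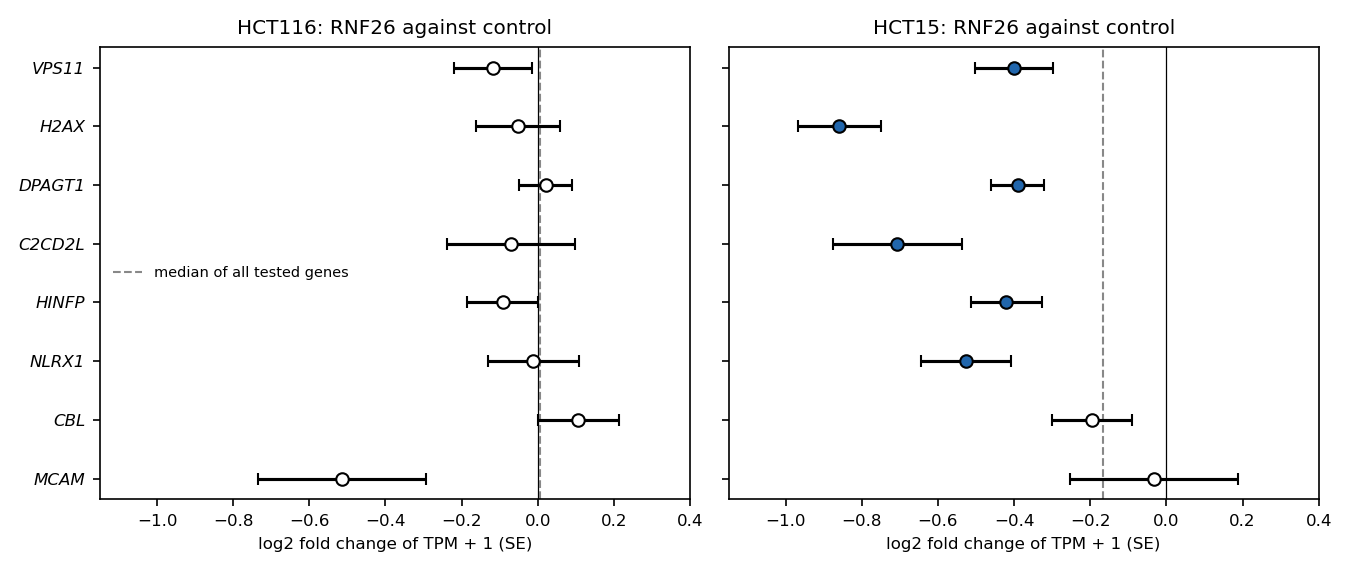
Log2 fold change of TPM + 1, RNF26 against control, with its standard error, for the 8 tested neighbours in HCT116 (left) and HCT15 (right); filled points were called and the dashed line is the median of all tested genes. In HCT15 the 6 called neighbours lie between -0.86 and -0.39, left of the median of -0.17, and in HCT116 all 8 are open.

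Several measures of whole libraries moved with the HCT15 groups. Split by GC content into 3 equal parts, low to high, all genes had median log2 fold changes of -0.02, -0.19 and -0.38 in HCT15. GC content was 66.9% for H2AX, 61.7% for NLRX1, 61.5% for C2CD2L, 53.2% for VPS11, 52.5% for HINFP and 51.5% for DPAGT1, against a median of 49.9% for tested genes. Among the neighbours that were not called it was 63.2% for MCAM and 48.5% for CBL. When GC content and length were corrected for, H2AX (log2 fold change -0.44) and DPAGT1 (-0.20) were still called, and the other 4 were not. Mitochondrial and ribosomal protein genes took 46.5%, 44.7% and 46.3% of TPM in HCT15 RNF26 libraries, against 39.5%, 40.7% and 43.4% in HCT15 controls. With these genes left out of the total, all 6 neighbours were still called. With median-ratio scaling or quantile normalization, which bring the median of all genes to about 0, H2AX, C2CD2L and NLRX1 were called, and DPAGT1, VPS11 and HINFP were not. Of 8 tested epithelial markers 4 were also called lower in HCT15, namely VIL1, CDX2, KRT19 and KRT8, against 31.2% of all genes. The other markers, CDH1 (log2 fold change -0.55), EPCAM (-0.01), KRT18 (-0.045) and KRT20 (-0.03), were not called. The part of epithelial state in the neighbours' change was not tested.

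**Figure D4:**
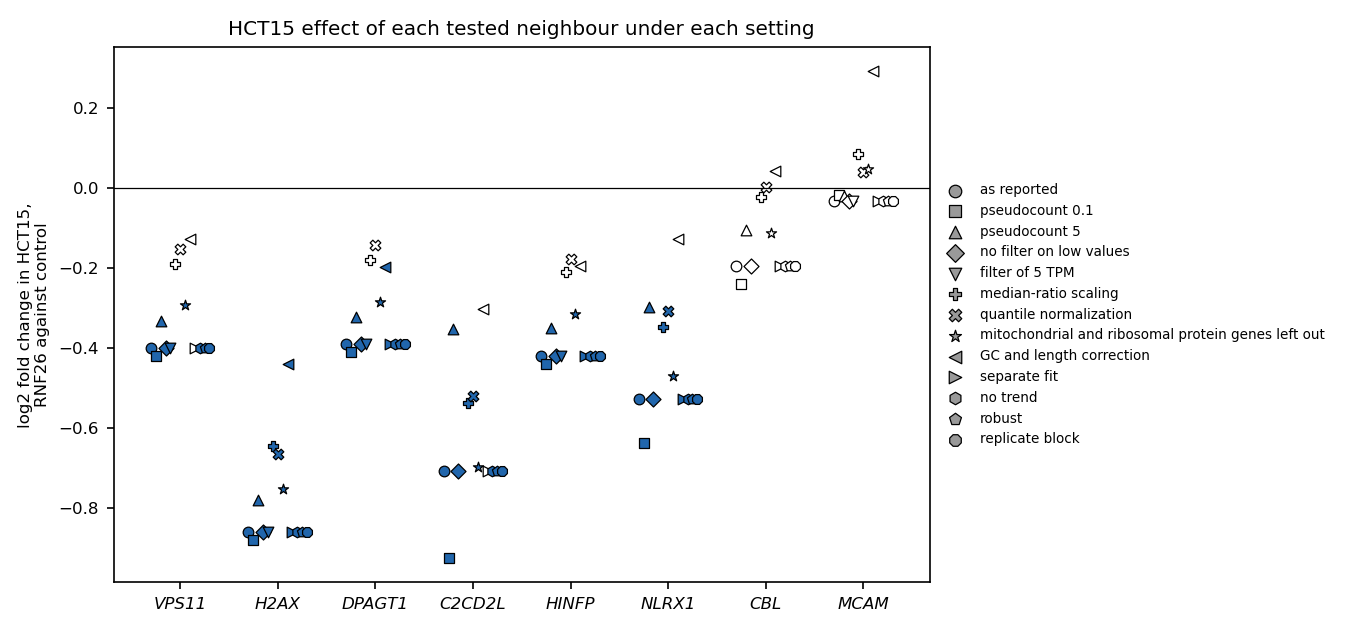
Log2 fold change in HCT15, RNF26 against control, of each tested neighbour under each processing setting; filled symbols were called and symbol shapes give the setting. H2AX is filled under every setting, GC and length correction gives the value nearest to 0 for H2AX (-0.44), and CBL and MCAM are open throughout and lie on both sides of 0.

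The difference of the RNF26 effect between the lines, HCT15 minus HCT116, was tested in the same limma fit. It passed for 2 of the 8 tested neighbours, both lower, where 20.5% of all genes passed, 18.7% lower and 1.8% higher. For H2AX the difference was -0.81 on the log2 scale (SE 0.156, limma adjusted p = 0.00614), and for DPAGT1 -0.41 (SE 0.0985, limma adjusted p = 0.0154). The DPAGT1 call was lost under median-ratio scaling (adjusted p = 0.196), quantile normalization (0.332) and GC correction (0.13), and when genes of mitochondria and ribosomal proteins were removed (0.0595). The differences for NLRX1 (-0.51, adjusted p = 0.052), C2CD2L (-0.64, adjusted p = 0.0837), HINFP (-0.33, adjusted p = 0.102) and VPS11 (-0.28, adjusted p = 0.199) did not pass. The NLRX1 difference passed with a pseudocount of 5 (adjusted p = 0.042), without a trend (0.0436), without HCT116 RNF26 replicate 3 (0.0268) and without HCT15 control replicate 3 (0.0298). The HINFP difference passed without HCT15 RNF26 replicate 2 (adjusted p = 0.0352). For those 4 genes, a call in HCT15 and none in HCT116 does not show that the lines differed. RNF26 itself differed by -3.07 (SE 0.129, limma adjusted p = 1.14e-06), with the larger rise in HCT116, where the neighbours were not called.

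The control cells of the 2 lines were also compared, to set the neighbours' levels by line beside the RNF26 effect. Of the 8 tested neighbours, limma called 3 higher and 2 lower in HCT15 controls than in HCT116 controls, where it called 69.5% of all genes, 43.6% higher and 26% lower. Their groups were apart for 5 of the 8, against 71.9% of all genes. MCAM differed most, with means of 1.26 ± 0.621 TPM in HCT15 controls and 14.2 ± 4.96 TPM in HCT116 controls (SD, n = 3 each). The log2 fold change was -2.74 (SE 0.220, limma adjusted p = 6.13e-07), an 11.3-fold lower mean in HCT15. H2AX averaged 52.9 ± 3.18 TPM in HCT15 controls and 108 ± 6.95 TPM in HCT116 controls (log2 fold change -1.02, limma adjusted p = 7.05e-06).

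NLRX1, VPS11 and HINFP were higher in HCT15 controls. NLRX1 averaged 5.24 ± 0.853 TPM in HCT15 controls and 2.77 ± 0.158 TPM in HCT116 controls (log2 fold change 0.72, limma adjusted p = 0.000216). VPS11 averaged 21.8 ± 2.46 TPM in HCT15 controls and 15.7 ± 1.16 TPM in HCT116 controls (0.45, adjusted p = 0.00213). HINFP averaged 22.2 ± 0.480 TPM in HCT15 controls and 16.8 ± 1.73 TPM in HCT116 controls (0.38, adjusted p = 0.0031). Under quantile normalization VPS11 (adjusted p = 0.111) and HINFP (0.184) were not called, nor was HINFP with GC correction (0.068). RNF26 was also higher in HCT15 controls, by 0.65 on the log2 scale (limma adjusted p = 5.95e-05). DPAGT1 (-0.07), CBL (-0.01) and C2CD2L (0.33) were not called. DPAGT1 was called lower with median-ratio scaling (-0.25), quantile normalization (-0.33) and GC correction (-0.28), and CBL with quantile normalization (-0.31). USP2 was not tested for its low level, and with no filter it was lower in HCT15 controls (-0.66, limma adjusted p = 0.00116).

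Per length, the order of the 9 in HCT116 controls was H2AX, DPAGT1, HINFP, VPS11, MCAM, CBL, C2CD2L, NLRX1 and USP2. DPAGT1 lay above HINFP by more than their spread, while HINFP, VPS11 and MCAM had overlapping libraries, as had C2CD2L and NLRX1. In HCT15 controls the order was H2AX, HINFP, VPS11, DPAGT1, NLRX1, C2CD2L, CBL, MCAM and USP2, and HINFP, VPS11 and DPAGT1 overlapped, as did NLRX1, C2CD2L and CBL.

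Within 500 kb of RNF26 the annotation lists 59 genes, RNF26 included, and 57 of them were in the table. Beside RNF26, 26 were protein-coding, of which 17 were tested. The 9 that were not were CXCR5, UPK2, FOXR1, ABCG4, NHERF4, C1QTNF5, MFRP, USP2 and THY1, and USP2 had the highest single library among them, at 1.11 TPM. Of the 15 other tested genes of the stretch limma called 0 in HCT116, also at an unadjusted p under 0.05. In HCT15 it called 5 of these 15 lower and 1 higher, where it called 31.2% of all genes lower and 5.39% higher. Their median log2 fold change of -0.16 was close to the -0.17 of all genes. RPS25, a protein of the small ribosomal subunit, averaged 3960 ± 215 TPM in HCT15 RNF26 libraries and 3100.0 ± 198 TPM in HCT15 controls (0.35, limma adjusted p = 0.00435).

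BCL9L, a coactivator of beta-catenin, averaged 2.30 ± 0.455 TPM in HCT15 RNF26 libraries and 5.58 ± 2.87 TPM in HCT15 controls, of which replicate 3 stood at 8.84 TPM (-0.92, limma adjusted p = 0.0115). SLC37A4, the glucose 6-phosphate transporter, averaged 13.2 ± 0.573 TPM in RNF26 libraries and 17.2 ± 2.38 TPM in controls (-0.35, adjusted p = 0.0151). HYOU1, a chaperone of the endoplasmic reticulum, averaged 45.9 ± 3.38 TPM in RNF26 libraries and 58.6 ± 7.62 TPM in controls (-0.34, adjusted p = 0.0195). These 3 genes and RPS25 each lost their call in a separate fit of the lines. Under GC correction these 3 genes lost it and RPS25 kept it (0.52). With median-ratio scaling SLC37A4 and HYOU1 were not called (limma adjusted p = 0.236 and 0.315). With quantile normalization SLC37A4 (0.493), HYOU1 (0.296) and RPS25 (0.104) were not called. SLC37A4 and HYOU1 also lost their call without HCT15 control replicate 1 (adjusted p = 0.0584 and 0.0789) or HCT15 RNF26 replicate 1 (0.0522 and 0.081). With GC correction the SLC37A4 value was 0.01. The noncoding CENATAC-DT was below 1 TPM on average in both groups (-0.55, adjusted p = 0.0442), and kept its call in 10 of 23 alternative settings. The difference between lines passed for BCL9L (-1.06, limma adjusted p = 0.0471), and in 4 of the 22 alternative settings that give a value for it.

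By distance, 0 of 3 tested genes within 100 kb of RNF26 were called lower in HCT15, among them CBL and MCAM. From 100 to 250 kb, 6 of 7 were, or 85.7%, among them NLRX1, HINFP, C2CD2L, DPAGT1 and H2AX. From 250 to 500 kb it was 5 of 13, or 38.5%, VPS11 among them. From 500 kb to 5 Mb it was 15 of 44, or 34.1%, and further along chromosome 11 it was 267 of 773, or 34.5%, against 31.2% of all tested genes. The bins near RNF26 hold few genes, so a share there moves much with 1 gene, and DPAGT1 and C2CD2L share an overlap.

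**Figure D5:**
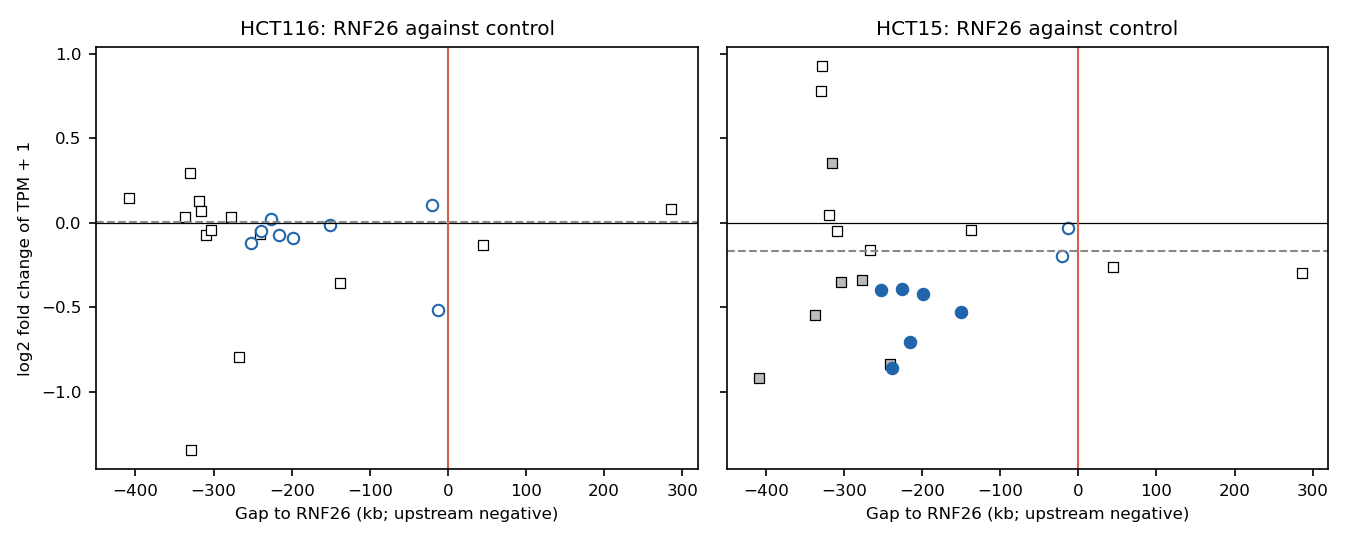
Log2 fold change of TPM + 1, RNF26 against control, by gap to RNF26 in kb for tested genes within 500 kb (circles: listed neighbours; squares: other genes; filled: called; dashed line: median of all tested genes) in HCT116 (left) and HCT15 (right). The x axis ends before NECTIN1-DT, a tested gene 392 kb downstream, which is not shown. In HCT15 the filled circles lie 151 to 253 kb upstream, and the genes nearest to RNF26 on either side are open.

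Genes that work with each neighbour but lie elsewhere were counted for comparison, and in HCT116 limma called 0 in any of these lists, with 1 gene, of glycan assembly, at an unadjusted p under 0.05. Shares are to be read against the 31.2% of all genes called lower in HCT15. Of the 9 other subunits of HOPS, CORVET and their partners, 6 fell in HCT15, with a median of -0.47 against -0.17 for all genes. VPS18, a core subunit, averaged 9.23 ± 0.345 TPM in RNF26 libraries and 17.1 ± 1.25 TPM in controls (-0.82, limma adjusted p = 0.000177), and VPS16 changed by -0.59 (adjusted p = 0.000897). VPS11, at -0.40, thus moved the same way as 6 genes of this list of subunits and partners, of which 4 or 5 were called under other scalings and GC correction. Of the 5 other tested lipid carriers of membrane contacts listed with C2CD2L, all 5 fell in HCT15, with a median of -0.61. Among them, ESYT1, a tether of the plasma membrane, averaged 37.2 ± 2.30 TPM in RNF26 libraries and 63.1 ± 4.07 TPM in controls (-0.74, adjusted p = 0.00208). With median-ratio scaling or quantile normalization 2 of the 5 were called, and with GC correction ESYT1 alone.

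Of 20 other genes of dolichol-linked glycan assembly, 4 fell and 1 rose in HCT15, and their median of -0.03 lay above that of all genes. ALG1, which adds the first mannose, changed by -0.68 (limma adjusted p = 0.000337) and ALG3, a later mannosyltransferase, by -0.48 (adjusted p = 0.000656), while ALG2 changed by 0.39 (adjusted p = 0.018). DPAGT1 fell where 15 of these 20 genes were not called. DPAGT1 itself was not called with median-ratio scaling (limma adjusted p = 0.0595) or quantile normalization (0.148), and was called with GC correction. With median-ratio scaling 2 of the 20 were lower and 4 higher, a median of 0.15, so the balance of this list turned with the scaling. Of the 5 other H2A variant genes 1 fell and 1 rose in HCT15. MACROH2A1, a variant of silent chromatin, averaged 169 ± 1.60 TPM in RNF26 libraries and 253 ± 34.6 TPM in controls (-0.57, adjusted p = 0.000688). H2AZ1, a variant at promoters, averaged 855 ± 16.2 TPM in RNF26 libraries and 694 ± 108 TPM in controls (0.31, adjusted p = 0.0245).

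Of the 7 other genes listed with NLRX1, 3 fell in HCT15, with a median of -0.20. They were TUFM, a mitochondrial elongation factor that binds NLRX1 (-0.87, limma adjusted p = 3.83e-05), STING1 (-0.50, adjusted p = 0.0041) and MAVS (-0.40, adjusted p = 0.0229), both adaptors of antiviral signalling. TUFM alone was called with median-ratio scaling, quantile normalization or GC correction. Of the 6 other CBL-family genes and adaptors 3 fell, namely UBASH3B (-0.74), CBLC (-0.40) and GRB2 (-0.32), with a median of -0.29, whereas CBL was not called. Of these, UBASH3B alone kept its call with median-ratio scaling or quantile normalization. Of 10 genes listed with USP2, clock genes among them, 6 fell in HCT15, with a median of -0.38. They included BMAL1 (-0.80, limma adjusted p = 0.000375), a driver of the clock, and CCND1 (-0.57, adjusted p = 0.000308), the cyclin of early G1 phase. With median-ratio scaling 3 of the 10 were lower and 1 higher.

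The gene most like each neighbour was found among 9345 genes as the one with the smallest root mean square difference of centred log2(TPM + 1) over the 12 libraries. It was FSCN1 for H2AX (0.0589), TARBP2 for DPAGT1 (0.0521), IMMT for HINFP (0.0721) and PDIA3 for VPS11 (0.0878). FSCN1, an actin bundling protein, averaged 88.3 and 94.1 TPM in HCT116 RNF26 and control libraries, and 24.5 and 46.6 TPM in HCT15 RNF26 and control libraries. The likest genes were NAXD for NLRX1 (0.0673), GNA13 for CBL (0.0571), MBOAT7 for C2CD2L (0.115) and MSX1 for MCAM (0.263), against medians over all candidates of 0.348 to 1.35. These values share libraries and describe pattern over 4 groups only. Each was picked as the smallest among 9345 genes, so lying below the median does not measure likeness. The root mean square of a neighbour's own centred values ran from 0.144 for CBL to 1.285 for MCAM.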

How the data were processed

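The 12 libraries held 3 per group, and groups and replicate numbers came from the sample titles. Per the labels' protocols, poly(A) RNA was sequenced paired-end from stranded libraries. The authors deposited TPM, and the submitters' processing notes name GRCh38 and the tools HISAT2, fastp, RSEM and StringTie, whose versions and roles the sources used here do not give. TPM of a gene moves with all others in the library, and depth is unknown, so no counting interval or count model was used. Positions came from GENCODE release 29, and a separate reference list of gene names gave symbols to 42300 identifiers.

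Tests used limma 3.58.1 in R 4.3.3 on log2(TPM + 1), on which fold changes of low genes are understated. Genes with 1 TPM or more in at least 3 of 12 libraries were fitted together, with 1 mean per group and an eBayes trend (8 residual degrees of freedom, prior 3.09). Tests were two-sided, with Benjamini-Hochberg adjustment over 15584 genes. The fit was tested on simulated data. Every pair of libraries differed in at least 24770 genes, so none was a copy. For GC correction, GC content and length were fitted per library by splines of 5 degrees of freedom, and 95.3% of tested genes had both. The named genes were RNF26, the 9 neighbours, the called and untested genes of the 500 kb window, and up to 4 genes of the smallest p per function list, though some of these are not reported here; members, lists and rules were chosen with earlier results of these data known. Figures and tables used Python 3.11.15, pandas 2.3.3, numpy 2.4.6 and matplotlib 3.10.9.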

Additional observations from a re-analysis of the deposited data

Results flagged for a closer look

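The RNF26 effect differed between HCT15 and HCT116 by the test of the difference itself (limma, 8 neighbours and RNF26 examined) for 3 of these genes. They were RNF26, the gene that was raised, and 2 of the 8 neighbours, where 20.5% of all genes passed. For RNF26 the difference was -3.07 on the log2 scale, HCT15 minus HCT116. For H2AX it was -0.81, with RNF26 libraries lower in 3 of 3 libraries in HCT15 and groups that overlapped in HCT116. For DPAGT1 it was -0.41, with all 3 HCT15 RNF26 libraries below all 3 controls. The DPAGT1 difference lost its call with median-ratio scaling, quantile normalization, GC correction, or mitochondrial and ribosomal genes removed. With 3 libraries per group, single libraries could not be tested as outliers.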

How the results depend on the processing

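Of 748 recomputed values of single genes, 704 kept their direction and side of the threshold, 19 lost and 9 gained a call, and 16 changed sign, all of them of neighbours not called as reported. The 6 neighbours called in HCT15 stayed 6 without each library in turn, with other pseudocounts, no filter, no trend, robust estimation or mitochondrial and ribosomal genes removed. They were 3 with median-ratio scaling or quantile normalization, 2 with GC correction, and 4 in a separate fit or with a 5 TPM filter, which leaves C2CD2L and NLRX1 untested. For the difference between lines they were 1 with median-ratio scaling, quantile normalization, mitochondrial and ribosomal genes removed or GC correction; a separate fit gives no value for it. Of the other genes of the stretch, 3 were called in HCT15 with median-ratio scaling, quantile normalization or GC correction, 2 in a separate fit, and 3 to 7 without each library. Their difference was called for 1 gene with a pseudocount of 5, no filter, a 5 TPM filter, quantile normalization, mitochondrial and ribosomal genes removed or no trend, and for 1 to 3 without each library. Between controls it was 3 with a 5 TPM filter, 8 with GC correction and 5 to 8 without each library. The cause of these shifts was not tested, and the all-gene median in HCT15 was 0 with median-ratio scaling, -0.00216 with quantile normalization and -0.01 with GC correction.

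Signs changed for uncalled neighbours. Without each library in turn, HCT116 values ran from -0.155 to 0.055 for H2AX, -0.0286 to 0.0587 for DPAGT1, -0.161 to 0.0123 for C2CD2L and -0.0825 to 0.0776 for NLRX1, which was 0.0112 with GC correction. In HCT15, MCAM ran from -0.199 to 0.178 without each library, and was 0.0831 with median-ratio scaling, 0.0393 with quantile normalization, 0.046 with mitochondrial and ribosomal genes removed and 0.291 with GC correction. CBL in HCT15 was 0.00155 with quantile normalization and 0.0424 with GC correction, and between controls it ran from -0.074 to 0.0688 without each library.

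The labels do not say whether replicate numbers pair libraries. Same-numbered libraries had correlations of deviations of -0.0424 to -0.0254 in HCT116 and 0.00895 to 0.146 in HCT15. For different numbers they ran from -0.0261 to 0.055 in HCT116 and from -0.124 to 0.113 in HCT15. With 3 libraries per group these values cannot decide whether libraries were paired. With the replicate number as a block, 6 neighbours were called in HCT15 and 1 other gene of the stretch in the difference between lines. With 3 libraries per group and unknown depth, small changes of low genes such as USP2, MCAM in HCT15 and C2CD2L are poorly resolved.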
